A study of Mus musculus with 15 samples.

Results

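The respiratory chain and ATP synthase of mitochondria are built from proteins of 2 genomes, and the genes described here are the nuclear share. They were chosen by symbol from the study's normalised expression table: names beginning with Ndufa, Ndufb, Ndufc, Ndufs or Ndufv, the 4 Sdh genes, and names beginning with Uqcr, Cox4 to Cox8 or Atp5. Of 100 matching symbols among the 16772 genes of the table, 7 pseudogene symbols (ending in -ps or -ps1) and 3 annotated processed pseudogenes (Ndufs6b, Cox6c2 and Ndufb4c) were dropped, which left 90 members. Of these, 89 were matched to the raw counts. Ndufb11b was present only in the normalised table. By complex, 45 members belonged to complex I, 4 to complex II, 8 to complex III, 16 to complex IV and 17 to complex V. The symbol rule also took in the 8 complex I assembly factors Ndufaf1 to Ndufaf8 and 5 tissue isoforms or paralogues, so that 76 matched members were core or accessory subunits.

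The study followed mouse embryonic stem cells (ESCs) by RNA sequencing after loss of OCT4, the pluripotency factor encoded by Pou5f1, in 15 libraries. In CreER ESCs (genotype Oct4Fl/-; CAG CreER, mixed 129SV and C57BL/6 background), 500 nM 4-hydroxytamoxifen (4-OHT) activated Cre to delete the floxed allele, and 2 replicate libraries were made at each of 0, 12, 18, 24 and 36 h. In O4AID ESCs (Oct4-/- with a TetOFF Oct4, a CAG Oct4AID and a CAG Tir1 transgene, on a 129SV background), the remaining OCT4 was an auxin-degron fusion driven from an integrated CAG transgene, with the doxycycline-repressible Oct4 shut off by 1 µg/ml doxycycline, and 500 µM of the auxin IAA triggered destruction of the protein, with a single library at each of 0, 1.5, 6, 10 and 24 h. Per the labels both lines were maintained without serum, with LIF and inhibitors of MEK and GSK3. The study moved Cre-deleted cells to medium with serum in another experiment, and whether the medium changed with 4-OHT for these libraries is not given in the sources used here. The route of loss, strain, transgenes and doxycycline therefore differ together between the lines and cannot be told apart. The labels do not say that the CreER replicates were separate cultures, so p-values measure only the spread between these libraries.

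Complex I passes electrons from NADH to ubiquinone, complex II from succinate, complex III passes them on to cytochrome c and complex IV to oxygen, and complex V makes ATP from the resulting proton gradient. Each of complexes I, III, IV and V joins core or catalytic subunits to many small accessory subunits, and all but complex II also contain subunits encoded by mitochondrial DNA. Mouse ESCs have mitochondria that respire, while also relying heavily on glycolysis.

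Total counts were 21655083 to 30774618 reads in CreER and 40537353 to 48719670 reads in O4AID libraries, and the members took 0.792% to 0.845% and 0.973% to 1.12% of them. Pou5f1 TMM-scaled CPM were 324 and 316 in untreated CreER ESCs and 112 and 124 at 36 h, and in O4AID ESCs, where the protein rather than the transcript was targeted, 756 at 0 h and 637 at 24 h. The 9 ESC markers summed to 3018 and 3073 CPM in untreated CreER ESCs and 6316 CPM in untreated O4AID ESCs. They stood at 2510 and 2422 CPM at 36 h and to 1636 CPM at 24 h respectively, while the 10 trophectoderm markers went from 348 and 333 to 677 and 715 CPM in CreER and from 118 to 181 CPM in O4AID. Markers of primitive endoderm were lower in sum but also rose, from 16.7 and 14.5 to 36.9 and 36.4 CPM at 36 h in CreER. In O4AID they rose from 10.6 to 45.9 CPM at 24 h, the highest of any library. Those of fibroblasts summed to at most 10.0 CPM in any library. Not every marker followed its sum in the edgeR test described below. At 36 h in CreER, 6 of the 9 ESC markers were called lower and 2 higher, and all 10 trophectoderm markers higher. Of 6 primitive endoderm markers tested, 2 were called higher and 1 lower. Beside them, 19.4% of all genes were called higher and 17.2% lower. The part of these shifts in cell identity in the results below was not tested.

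A feature of sequence bears on the levels given for some of these genes. Spliced transcripts of small, abundant mitochondrial proteins have been copied back into the genome many times as processed pseudogenes, intronless copies that usually make no protein. Of the 89 matched members, 21 had at least 1 annotated processed pseudogene at 95% identity or more over at least 100 bases (GENCODE M21, GRCm38), and up to 8 for Atp5l. The following stretches of coding sequence from genes of complexes I, III, IV and V are shown beside the copy because they are the same in every base. A read within such a stretch does not say whether it came from the gene or the copy.
Ndufb4 (chromosome 16), coding bases 1 to 90: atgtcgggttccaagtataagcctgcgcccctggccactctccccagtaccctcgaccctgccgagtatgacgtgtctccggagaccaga
Ndufb4c (chromosome 15): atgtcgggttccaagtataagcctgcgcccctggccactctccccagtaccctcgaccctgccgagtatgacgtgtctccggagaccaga
Uqcrb (chromosome 13), coding bases 1 to 90: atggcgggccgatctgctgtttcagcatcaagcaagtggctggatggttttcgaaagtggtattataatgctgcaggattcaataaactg
Gm2962 (chromosome 1): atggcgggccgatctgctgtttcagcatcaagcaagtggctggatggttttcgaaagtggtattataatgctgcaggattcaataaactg
Cox7c (chromosome 13), coding bases 32 to 121: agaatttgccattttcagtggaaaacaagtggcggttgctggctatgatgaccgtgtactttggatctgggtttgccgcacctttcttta
Gm12338 (chromosome 11): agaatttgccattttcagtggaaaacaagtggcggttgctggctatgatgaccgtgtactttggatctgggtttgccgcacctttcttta
Atp5l (chromosome 9), coding bases 1 to 90: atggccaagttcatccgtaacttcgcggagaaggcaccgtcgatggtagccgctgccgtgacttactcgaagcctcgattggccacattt
Atp5l2-ps (chromosome 11): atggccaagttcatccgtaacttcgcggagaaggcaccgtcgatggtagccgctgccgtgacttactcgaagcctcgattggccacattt

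To compare members with one another, CPM were divided by the gene length in kb. The alpha and beta subunits of the F1 part of ATP synthase stood highest. Atp5b, the catalytic beta subunit, reached 445 CPM per kb ± 11.9 (SD, n = 10 CreER libraries) and 443 to 594 in the O4AID libraries, and Atp5a1, the alpha subunit, 391 ± 9.96 and 315 to 405. Their ranges did not overlap in CreER, where Atp5a1 did not exceed 406 and Atp5b did not fall under 427. Next in CreER were Cox4i1, the common form of complex IV subunit 4, at 285 ± 20.3 CPM per kb, and Cox8a, the common form of subunit 8, at 239 ± 10.0. In O4AID that order was turned, with Cox8a at 307 to 370 and Cox4i1 at 189 to 202 CPM per kb, and with Cox6a1 at 271 to 290 and Cox6b1 at 206 to 262 CPM per kb also above Cox4i1.

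Complex I members were lower, with a median over 44 members of 18.3 CPM per kb in CreER and 36.7 in O4AID. Within complex I the membrane-arm subunit Ndufb9 was highest, at 98.3 ± 3.18 CPM per kb (SD, n = 10) in CreER and 132 to 156 in O4AID. Ndufb2 had the lowest mean over the 15 libraries, at 1.50 ± 0.109 in CreER and 1.42 to 1.83 in O4AID. The 8 assembly factors had medians of 6.32 CPM per kb in CreER and 9.46 in O4AID, under the 40.1 and 58.7 of the 22 core subunits and the 24.9 and 62.7 of the 54 accessory subunits. The 4 subunits of complex II, which unlike the others has no mitochondrially encoded part, kept the same order in both lines. Sdhd, a membrane anchor, had 81.8 CPM per kb ± 4.89 in CreER, followed by the flavoprotein Sdha at 61.4 ± 2.68, the iron-sulphur protein Sdhb at 32.0 ± 1.35 and the other anchor Sdhc at 22.1 ± 0.975. The lowest Sdhd library, at 74.6 CPM per kb, was above the highest Sdha library, at 65.7. In complex III, Uqcr10 was highest at 92.1 ± 6.68 CPM per kb in CreER and 161 to 203 in O4AID, and Uqcrq lowest at 6.93 ± 1.89 and 11.1 to 20.4. Atp5j, the F6 subunit of the peripheral stalk, had the lowest mean of complex V over the 15 libraries together, at 9.74 ± 0.803 in CreER and 9.86 to 14.0 in O4AID, but was lowest in neither line: Atp5l was lowest in CreER (4.00) and Atp5e in O4AID (9.39). A gene length that counts every annotated exon, as here, lowers the value of genes with long rarely used exons. The plot of levels by complex shows 88 of the 89 matched members.

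**Figure D1:**
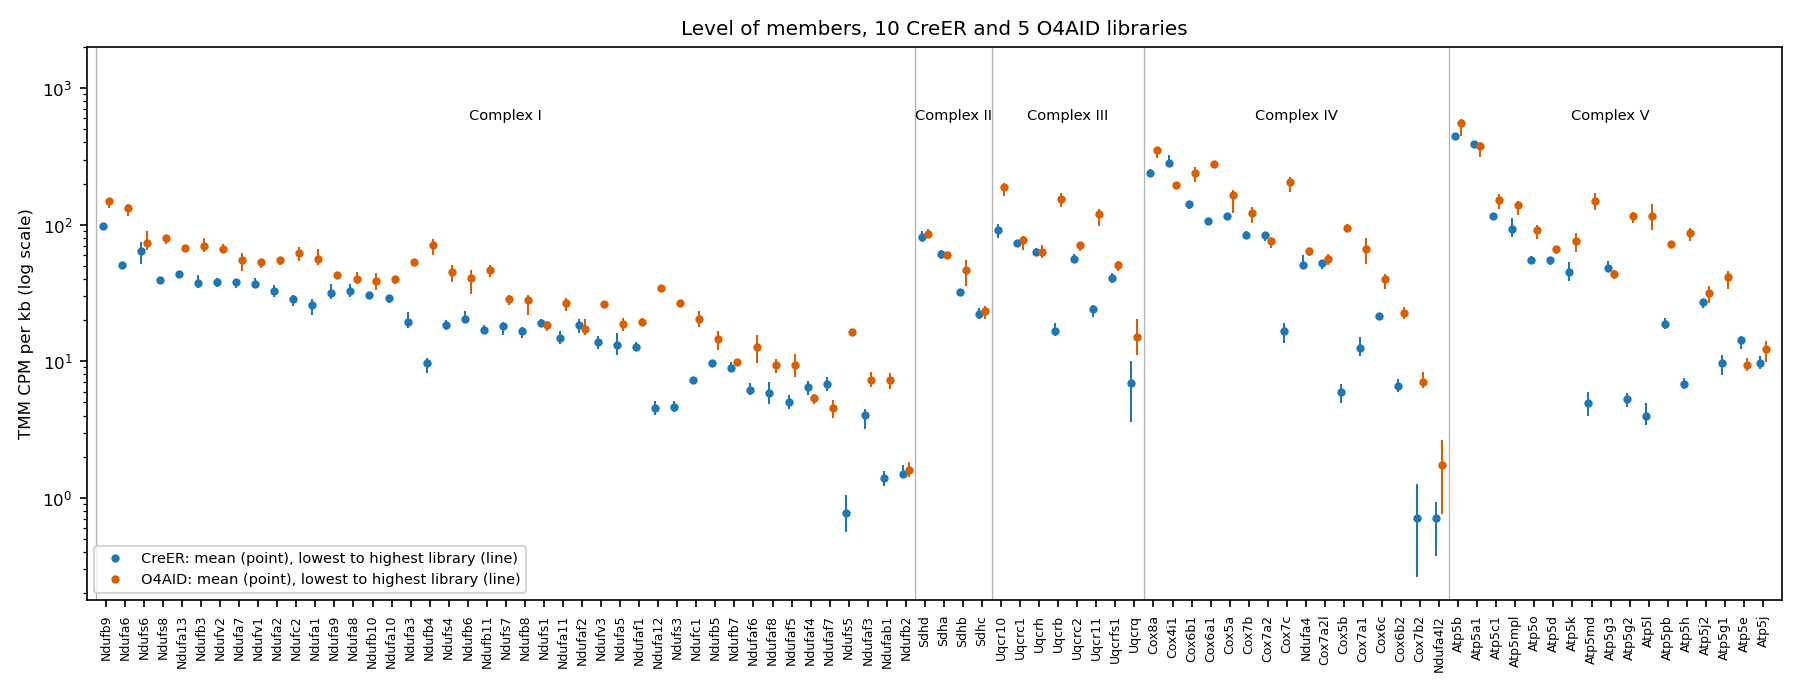
Level of 88 of the 89 members matched to counts as TMM CPM per kb of gene length on a log scale, ordered within complexes I to V by mean level, with points for the mean and lines from the lowest to the highest of 10 CreER (blue) and 5 O4AID (orange) libraries. Atp5b and Atp5a1 stand highest in both lines, and single members such as Cox7c, Cox5b, Atp5l and Ndufs5 lie far lower in CreER than in O4AID.

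Where a complex IV subunit has several isoforms, the common form had the higher CPM in untreated CreER ESCs. Cox7a2 had 63.6 and 66.8 CPM and Cox7a1, the heart and muscle isoform, 5.99 and 5.81 CPM in untreated CreER ESCs, while the related supercomplex factor Cox7a2l had 57.2 and 62.4 CPM. In untreated O4AID ESCs, Cox7a1 had 34.3 CPM beside 58.0 CPM for Cox7a2. Cox6b2 and Cox7b2, testis isoforms of subunits 6B and 7B, had 7.28 and 7.36 CPM and 0.394 and 0.297 CPM in untreated CreER ESCs, where their common forms Cox6b1 and Cox7b had 105 and 98.0 CPM and 102 and 98.2 CPM. Ndufa4l2, a paralogue of Ndufa4, had 0.748 and 0.693 CPM beside 69.3 and 82.2 CPM for Ndufa4 itself, which was named for complex I and is found in complex IV. Cox4i2, Cox6a2, Cox8b and Cox8c, the other isoforms, were outside the normalised table and did not exceed 41 counts in a library. Of the 3 genes for the c-ring of ATP synthase, whose mature proteins are the same, Atp5g3 led in untreated CreER ESCs with 102 and 118 CPM, followed by Atp5g1 with 49.6 and 38.8 and Atp5g2 with 7.80 and 8.78. The near-identical copy of Atp5g1 had a further 71.4 and 61.9 CPM there, which makes 121 and 101 CPM for Atp5g1 with its copy, level with Atp5g3. In untreated O4AID ESCs the values were 227 CPM for Atp5g1, 203 CPM for Atp5g2 and 101 CPM for Atp5g3. These are CPM, not levels per kb, so isoforms of different length are compared only as counts.

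After 4-OHT in CreER ESCs, most of these genes were not called at any time. The question of this time course was which transcripts change as OCT4 is lost. Tested by edgeR's quasi-likelihood test with Benjamini-Hochberg adjustment over 18969 genes, none of the 89 members passed adjusted p of 0.05 at 12 h, when 0.395% of all genes tested did (0.258% higher and 0.137% lower), and 3 members had an unadjusted p under 0.05. DESeq2 called none at 12 h either. At 18 h, 2 members were called, both lower (2.25%), beside 8.51% of all genes, 3.79% lower and 4.73% higher. At 24 h, 10 members were called, all lower (11.2%), beside 21.6% of all genes, 10.6% lower and 11.0% higher. At 36 h, 4 members were called higher and 14 lower, together 20.2% of members, beside 36.6% of all genes, 19.4% higher and 17.2% lower. Tested over the 4 times together, 17 members changed (19.1%), beside 34.4% of all genes. In this fit of all 10 libraries, the share called lower was therefore near that of all genes at 24 h and 36 h. The share called higher was under that of all genes. This comparison with all genes is not made for the fits with a library left out that are given below. Median log2 fold changes of the members were 0.02, -0.01, -0.06 and -0.005 at the 4 times, beside medians of -0.00, 0.01, 0.01 and 0.01 over all genes. Summed over the members, the level was 8144 and 8103 CPM at 0 h, 7669 and 7840 CPM at 24 h and 8022 and 8115 CPM at 36 h. The 24 h sums lay under both 0 h sums and the 36 h sums overlapped with them. The count of 14 lower members depended on single libraries, falling to 4 without CreER 0 h replicate 2, 8 without 36 h replicate 1 and 9 without 36 h replicate 2. That of 10 at 24 h was 17 without 0 h replicate 1, 4 without 0 h replicate 2 and 3 without either 24 h library, and that of 4 higher at 36 h was 7 without 0 h replicate 1. With libraries scaled by total count, 28 members were called lower at 36 h, when 4802 of all genes were called lower and 2696 higher in place of 3262 and 3686, and 6 members at 24 h, when 1439 of all genes were called lower and 2274 higher in place of 2005 and 2084.

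**Figure D2:**
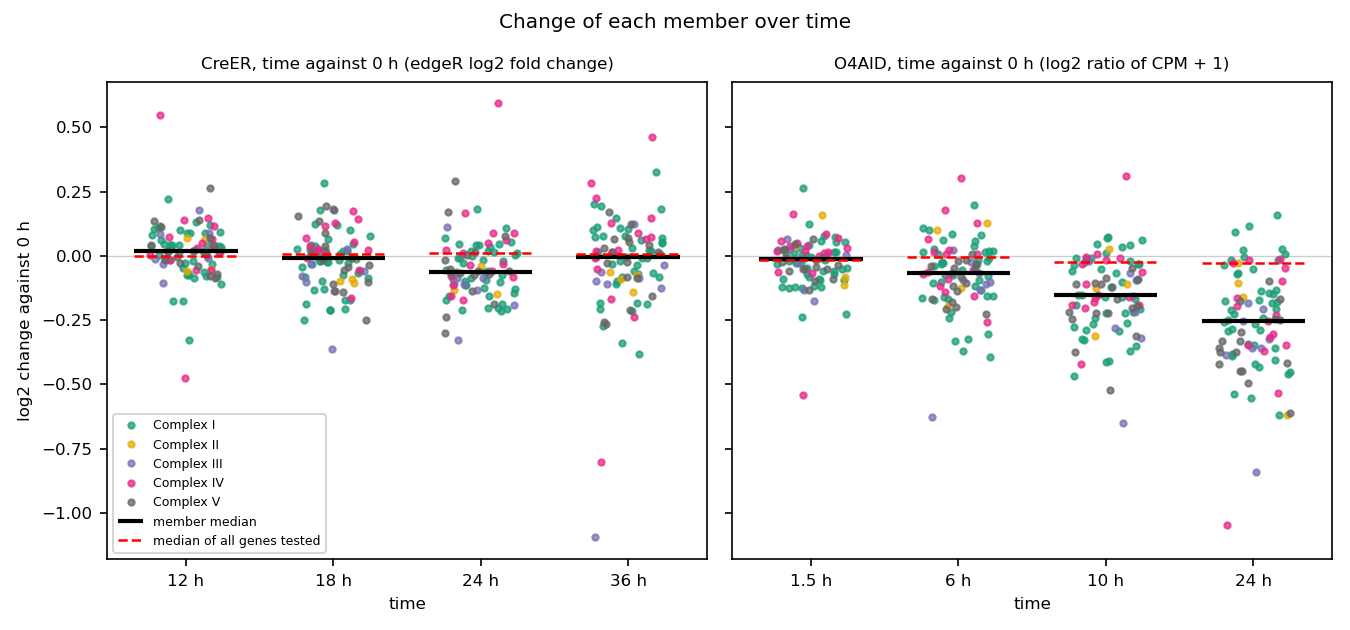
Log2 change of each of 89 members against 0 h in CreER ESCs (left, edgeR log2 fold change, 2 libraries a time) and O4AID ESCs (right, log2 ratio of CPM + 1, 1 library a time), with 1 point a member coloured by complex, black bars for the member median and dashed red bars for the median of all genes tested. The member median stays within 0.07 of 0 in CreER and moves to -0.25 at 24 h in O4AID.

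Uqcrq, a small accessory subunit of complex III (chr11:53427922-53430831, minus strand), had the largest called change. Its CPM were 13.5 and 18.3 at 0 h, 14.3 and 15.5 at 12 h, 12.7 and 12.1 at 18 h, 11.0 and 14.6 at 24 h and 8.19 and 6.57 at 36 h. The 36 h values lay under all others, while those of 18 h and 24 h were close to the lower 0 h library. Its log2 fold change at 36 h was -1.10 ± 0.19 (SE; edgeR adjusted p = 0.00133), to 46.8% of the 0 h level, and it fell further between 24 h and 36 h (-0.77 ± 0.20, adjusted p = 0.0291). It remained called at 36 h under all 10 alternatives, with adjusted p from 2.08e-24 to 0.0217. The other complex III member called at 36 h was the core protein Uqcrc1, at 314 and 320 CPM at 0 h and 292 and 290 CPM at 36 h (-0.11 ± 0.04, edgeR adjusted p = 0.0249). The 0 h and 36 h libraries of Uqcrc1 did not overlap.

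In complex I, 6 of 44 members fell and 2 rose at 36 h (17.2% and 19.4% of all genes). Of the 6 that fell, 2 were assembly factors. Ndufs6 (chr13:73319874-73328542), a subunit of the peripheral arm that binds zinc, had 42.2 and 47.0 CPM at 0 h, 38.6 and 38.5 at 24 h and 35.6 and 32.3 at 36 h (log2 fold change -0.38 ± 0.06, edgeR adjusted p = 2.78e-05). From 24 h on every library lay under both 0 h libraries. Ndufa5 of the same arm had 12.8 and 16.7 CPM at 0 h and 11.5 and 11.8 at 36 h (-0.34 ± 0.11, edgeR adjusted p = 0.0197). Its call was kept in 7 of 10 alternatives and lost without 0 h replicate 2, 36 h replicate 1 or 36 h replicate 2. Without 0 h replicate 2, the higher of its 0 h values, the change was -0.12. Ndufa9 (-0.21), Ndufb3 (-0.18) and, from complex IV, Ndufa4 (-0.17) also fell. Ndufa9 was called at 18, 24 and 36 h alike, with log2 fold changes of -0.21, -0.20 and -0.21. Ndufa3, a membrane-arm subunit (chr7:3617373-3620327), rose from 18.8 and 18.0 CPM at 0 h to 22.5 and 23.3 at 36 h (0.33 ± 0.07, edgeR adjusted p = 0.000963), with 19.9 and 18.4 at 24 h. Ndufv3, a subunit of the NADH-binding part, had 33.3 and 33.8 CPM at 0 h and 37.5 and 38.1 at 36 h (0.18 ± 0.07, edgeR adjusted p = 0.0292), a call kept in 3 of 10 alternatives. Of the assembly factors, Ndufaf4 had 25.9 and 28.0 CPM at 0 h and 21.9 and 22.5 at 36 h (-0.27 ± 0.07, edgeR adjusted p = 0.0023) and Ndufaf7, a methyltransferase, 17.0 and 17.8 and then 15.7 and 14.0 (-0.21 ± 0.08, edgeR adjusted p = 0.0462). The Ndufaf7 call was lost in 5 of 10 alternatives, among them DESeq2 and the replicate block, with an adjusted p of up to 0.313, and the change was -0.14 without 36 h replicate 2.

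In complex IV, 2 of 16 members rose and 2 fell at 36 h (19.4% and 17.2% of all genes). Cox4i1 (chr8:120668222-120674207) rose from 417 and 409 CPM at 0 h to 429 and 444 at 24 h and 497 and 499 at 36 h. Its log2 fold change at 36 h was 0.28 ± 0.04 (edgeR adjusted p = 8.15e-07), of which 0.19 ± 0.04 arose after 24 h (adjusted p = 0.000563). The 36 h libraries lay above the other 8. Cox7a1 (chr7:30184144-30186078) had 5.99 and 5.81 CPM at 0 h and 8.11 and 7.99 at 36 h (0.46 ± 0.12, edgeR adjusted p = 0.00299), the largest rise. Cox7c, one of the members with near-identical copies, had 18.6 and 21.4 CPM at 0 h and 15.3 and 18.7 at 36 h, which overlap (-0.24 ± 0.09, edgeR adjusted p = 0.0443). Its call was lost in 4 of 10 alternatives, with an adjusted p of up to 0.556.

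In complex V, 3 of 17 members fell at 36 h and none rose (17.2% and 19.4% of all genes). The 3 were small subunits of the stalk and membrane parts, and no F1 subunit was called. Atp5j had 33.0 and 33.9 CPM at 0 h, 28.6 and 27.8 at 24 h and 28.0 and 27.5 at 36 h (-0.26 ± 0.06 at 36 h, edgeR adjusted p = 0.00191). Atp5k, subunit e, had 26.6 and 32.7 at 0 h and 23.7 and 25.5 at 36 h (-0.27 ± 0.09, edgeR adjusted p = 0.0231). Its change was -0.10 without 0 h replicate 2 and -0.40 without 0 h replicate 1, and the call was lost without 0 h replicate 2 or 36 h replicate 1, with an adjusted p of up to 0.452. Atp5mpl had 35.005 and 41.0 CPM at 0 h, 32.8 and 31.0 at 18 h, 29.8 and 31.8 at 24 h and 32.3 and 33.1 at 36 h, and was called at all 3 times, with -0.30 ± 0.07 at 24 h (adjusted p = 0.00197). Of the complex II genes, Sdha was called at 36 h, from 248 and 255 CPM to 237 and 216 (-0.14 ± 0.04, edgeR adjusted p = 0.0117), and Sdhd at 24 h, from 110 and 109 to 100 and 96.0 CPM (-0.15 ± 0.04, edgeR adjusted p = 0.0125). Sdhb and Sdhc were called at neither time.

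**Figure D3:**
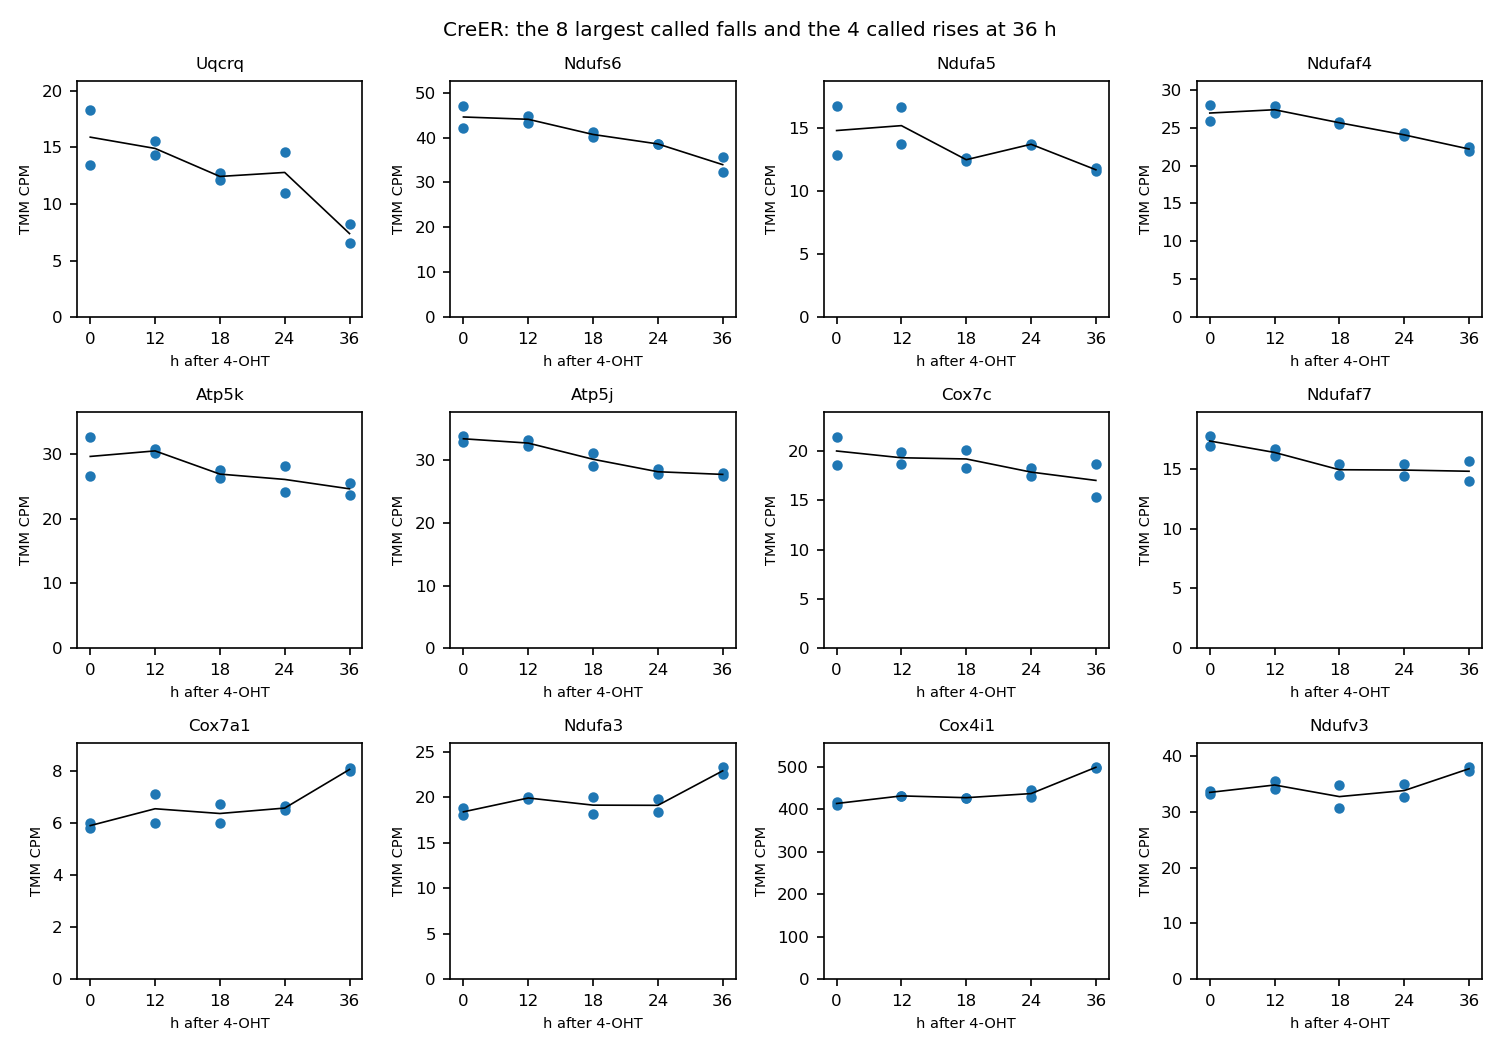
TMM CPM of the 8 largest called falls and the 4 called rises at 36 h in CreER ESCs, with 1 point a library, 2 libraries at each of 0, 12, 18, 24 and 36 h, a line through the means and axes from 0. Uqcrq falls from 13.5 and 18.3 to 8.19 and 6.57 CPM, while Cox4i1 rises from 417 and 409 to 497 and 499 CPM.

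Several core subunits were called at 24 h. Of the 22 core subunits, 5 were called at 24 h, all lower (10.6% of all genes): Ndufs1 (-0.16), which carries iron-sulphur clusters, Ndufv2 (-0.14), Sdhd (-0.15), Uqcrc2 (-0.13) and the Rieske protein Uqcrfs1 (-0.19). None of these 5 was called at 36 h, though Sdhd, at 102 and 103 CPM, and Ndufs1, at 152 and 156 CPM, were still under both 0 h libraries, at 110 and 109 CPM and at 164 and 165 CPM. Of these 5, Uqcrfs1 alone had a called step from 24 h to 36 h. Uqcrfs1 had 57.8 and 60.2 CPM at 0 h, 51.0 and 51.6 at 24 h and 56.4 and 58.0 at 36 h (step from 24 h, 0.16 ± 0.05, edgeR adjusted p = 0.0444). Between 24 h and 36 h, 6 members rose and 1 fell, 7.87% of members, beside 14.7% of all genes, 8.12% higher and 6.55% lower. The rises were Ndufa3, Cox4i1, Cox7b, Atp5pb, Atp5b and Uqcrfs1. With total-count scaling, which moves the median of all genes in this step to -0.10, no member was called higher and 10 lower (682 of all genes higher and 3202 lower, in place of 1541 and 1243), so the direction of this step depends on the scaling. Without 24 h replicate 1 there were 3 rises, without 24 h replicate 2 there was 1, and without 36 h replicate 2 there were 2. Leaving out 24 h replicate 2 or 36 h replicate 2 lost the fall, that of Uqcrq.

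In O4AID ESCs, where OCT4 protein was degraded, the members drifted down together. With 1 library a time there is no test, and each value compares 2 libraries. The intervals given cover counting error only (95% Wilson intervals of each share of reads, carried to the ratio). All 89 members had a mean of at least 50 counts, as did 13536 genes in all. Median log2 changes of the members were -0.01, -0.07, -0.15 and -0.25 at 1.5, 6, 10 and 24 h, beside -0.02, -0.00, -0.02 and -0.03 over all genes. The number of members under their 0 h value was 51, 63, 79 and 83 of 89, beside 54.8%, 50.8%, 53.6% and 52.6% of all genes. At 24 h, 67 members had an interval wholly under 0. The share of all genes with an interval on 1 side of 0 was not taken, so this count has no background. The falls were small. At 24 h, 5 members were at least 1.5-fold lower (10.7% of all genes) and none was at least 1.5-fold higher (11.7% of all genes), and at 6 h and 10 h Uqcrq alone was (2.62% and 4.38% of all genes lower, 2.6% and 5.07% higher). At 1.5 h no member was past 1.5-fold, beside 0.488% of all genes lower and 0.244% higher. The summed level of the members went from 12137 CPM at 0 h to 11941, 11743, 11105 and 9912 CPM at 1.5, 6, 10 and 24 h, lower at each later time. As a share of all counts it was 1.107%, 1.123%, 1.123%, 1.071% and 0.973%, so that by total count it was not lower until 10 h. Scaling by total count moved the median of all genes at 24 h to 0.07 and that of the members to -0.15, so the members stood 0.22 under all genes by total count and 0.23 by TMM.

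The fall was greatest in complexes III and V. At 24 h the median log2 change was -0.36 in complex V and -0.34 in complex III. It was -0.24 in complex IV, -0.21 in complex I and -0.13 in complex II. All 17 members of complex V and all 8 of complex III were under 0 with their intervals, beside 52.6% of all genes under 0 by value alone. The 22 core subunits had a median of -0.22 and the 54 accessory subunits -0.29. The 21 members with near-identical copies had a median of -0.35 and the 68 without, -0.24. The part of the copies in the order of the complexes was not tested. Atp5b had 2516, 2477, 2480, 2368 and 1878 CPM at 0, 1.5, 6, 10 and 24 h, a log2 change of -0.42 at 24 h (interval -0.44 to -0.40), and Atp5a1 1268, 1218, 1254, 1166 and 989 CPM (-0.36 at 24 h, -0.38 to -0.33). Both were nearly level to 6 h and lowest at 24 h. In CreER ESCs neither gene was called at any time against 0 h: Atp5b ranged from 1810 to 1959 CPM and Atp5a1 from 1170 to 1272 CPM over the 10 libraries.

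**Figure D4:**
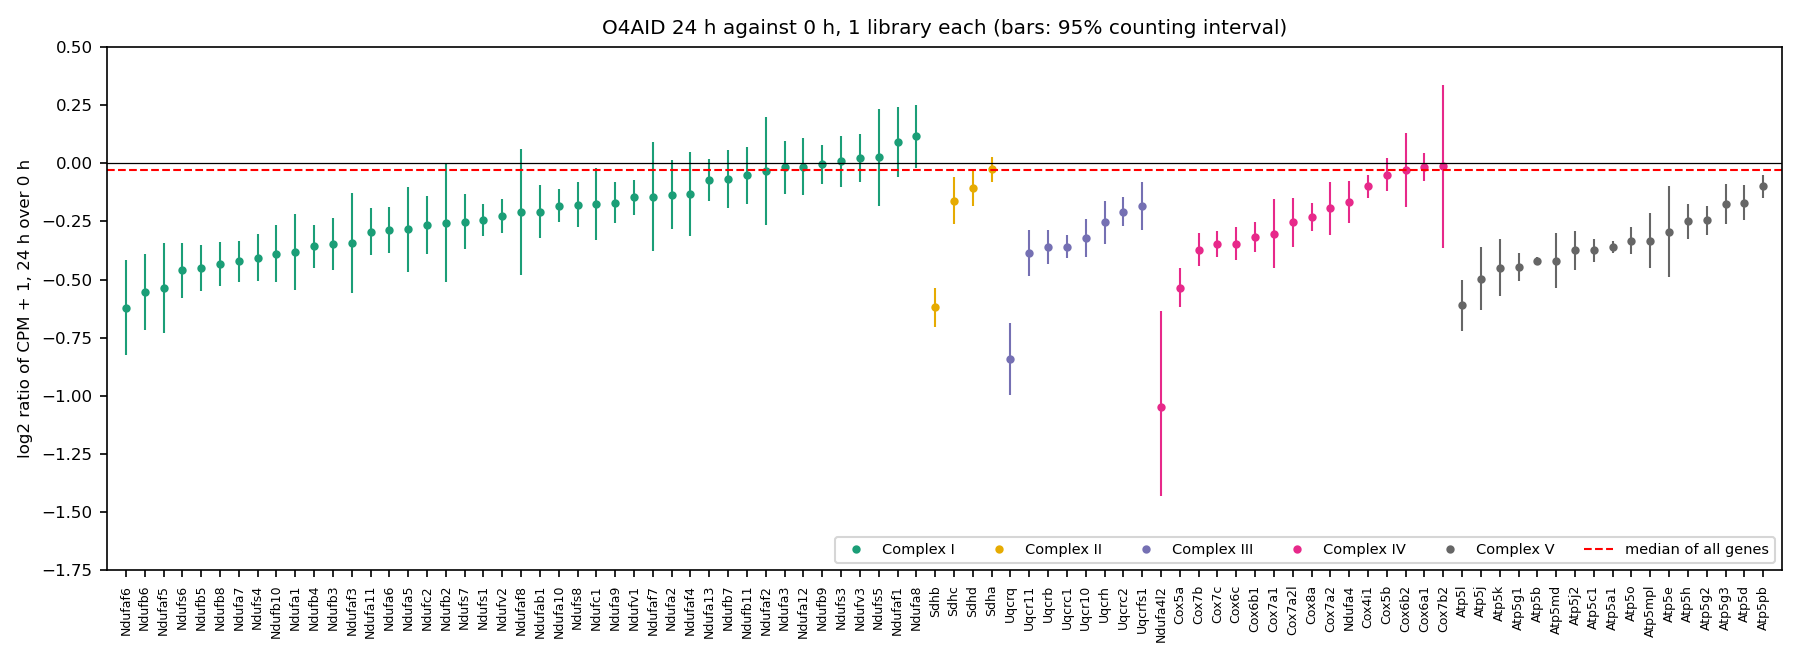
Log2 ratio of CPM + 1 at 24 h over 0 h in O4AID ESCs for 88 of 89 members grouped by complex, 1 library a time, with bars for the 95% counting interval and a dashed line at the median of all genes, -0.03. All members of complexes II, III, IV and V lie under 0, and complex I has members on both sides.

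Uqcrq was also among the largest falls here, at 37.3, 33.9, 23.8, 23.4 and 20.4 CPM over the 5 times, a log2 change of -0.84 at 24 h (interval -0.998 to -0.686). Most of its fall was present at 6 h. Only Ndufa4l2 fell more, from 2.57 CPM at 0 h to 1.45, 1.99, 1.66 and 0.725 (-1.05, -1.43 to -0.64), on low counts and without an order over the times between. Sdhb went from 123 to 116, 107, 99.0 and 79.8 CPM (-0.62, -0.70 to -0.53), while the other complex II genes changed less: -0.16 for Sdhc, -0.10 for Sdhd and -0.03 for Sdha. The assembly factor Ndufaf6 went from 19.1 to 12.1 CPM (-0.62, -0.82 to -0.42), Atp5l, subunit g of ATP synthase, from 71.9 to 46.7 CPM (-0.61, -0.72 to -0.50), and the membrane-arm subunit Ndufb6 from 30.5 to 20.4 CPM (-0.55, -0.72 to -0.39). An exon of Ndufb6 overlaps a gene on the opposite strand over 39.0% of its exon bases, and whether the counting used strand is not given in the sources used here.

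Values in the other direction were small. Ndufa8 (0.12), the assembly factor Ndufaf1 (0.09), Ndufs5 (0.03), Ndufv3 (0.02) and Ndufs3 (0.01) had intervals that included 0. Cox7a1 rose and then fell, at 34.3, 35.5, 38.9, 42.7 and 27.6 CPM. Its log2 change was 0.31 at 10 h and -0.30 at 24 h, and it was the 1 member with an interval above 0 at 10 h.

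Placed side by side at 24 h, the routes gave unlike values for some members and near values for others. The CreER log2 fold change and the O4AID log2 change were -0.33 and -0.84 for Uqcrq, -0.24 and -0.50 for Atp5j, -0.20 and -0.46 for Ndufs6, and -0.06 and -0.42 for Atp5b. For Cox4i1 they were 0.09 and -0.10. Uqcrq, Atp5b and Cox4i1 were not called at 24 h in CreER. Near values were -0.30 and -0.33 for Atp5mpl, -0.20 and -0.17 for Ndufa9, -0.19 and -0.18 for Uqcrfs1, and -0.17 and -0.17 for Ndufa4. Times after 4-OHT and after IAA do not mark the same time without OCT4 protein, and the difference between routes was not tested.

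Untreated, the lines differed far more in these genes than either did over time. With 1 O4AID and 2 CreER libraries there is no test. Of the 89 members, 54 were at least 1.5-fold higher in untreated O4AID ESCs (32.1% of 14049 genes) and none at least 1.5-fold lower (24.5%). The median log2 difference, O4AID minus CreER, was 0.79 for the members and 0.15 for all genes. Atp5l had 1.97 and 1.75 CPM in CreER and 71.9 in O4AID, Atp5md 1.38 and 1.95 and then 58.4, Atp5g2 7.80 and 8.78 and then 203, and Cox5b, on the matrix side of complex IV, 9.41 and 7.65 and then 143. These are log2 differences of 4.67, 4.49, 4.46 and 3.93. In the other direction stood Ndufaf7 (-0.56), Cox4i1 (-0.40) and Atp5e (-0.36), all under 1.5-fold. Medians were above 0 on every chromosome that carried members, from 0.09 over 3 members on chromosome 8 to 1.51 over 7 members on chromosome 7.

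These differences moved with the near-identical copies shown above. The 21 members with copies had a median difference of 2.34, and the 68 without, 0.63. Among all genes searched, the median was 0.19 with no copy, 0.53 with 1, 0.83 with 2 or 3 and 2.37 with more. For several of these members most reads in CreER lay in the copies. Cox7c had 18.6 and 21.4 CPM in CreER and 251 in O4AID, while its 3 copies had 118 and 119 CPM in CreER and 0.203 in O4AID. Atp5h, the d subunit of the peripheral stalk, had 10.1 and 11.1 CPM against 133, with 65.8 and 64.5 CPM in its copies against 1.13. For Uqcrb the gene had 13.8 and 13.4 CPM against 151 and its copies 17.0 and 19.96 against 0.0225. For Cox5b, no copy was found in the annotation searched, but the dropped symbol Cox5b-ps had 1926 and 2181 in the normalised table in untreated CreER ESCs and 0 in O4AID, where Cox5b had 311 and 255 and then 4446. Adding the copies to the gene, the log2 difference went from 3.59 to 0.85 for Cox7c, from 3.53 to 0.82 for Atp5h, from 4.67 to 0.85 for Atp5l, from 2.77 to 0.12 for Ndufa12 and from 3.38 to 2.20 for Uqcrb. Over the 21 members with copies the median went from 2.34 to 0.83. Processed pseudogenes as a whole took 5.70% to 6.50% of counts in every CreER library and 1.246% to 1.52% in every O4AID library. The cause was not tested. For Atp5g2 no copy was found. Counts of calls within a line changed little without these members: 4 higher and 11 lower at 36 h in CreER, and 4 at least 1.5-fold lower at 24 h in O4AID. Fewer cells of a type and less RNA per cell cannot be told apart in bulk samples.

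**Figure D5:**
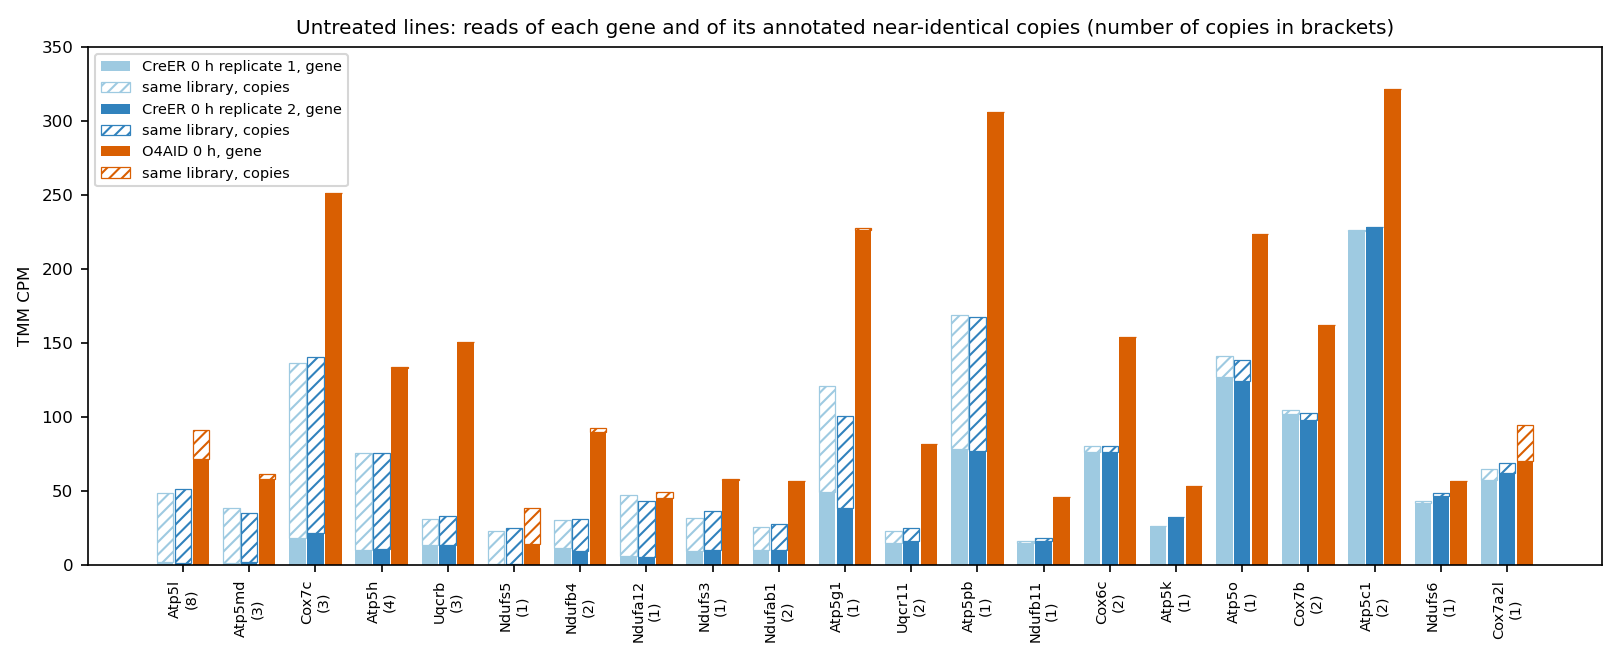
TMM CPM in the 3 untreated libraries for the 21 members with annotated near-identical processed pseudogenes, with solid bars for reads of the gene and hatched bars stacked on them for reads of its copies, whose number is in brackets. In CreER most reads for members such as Cox7c, Atp5h and Atp5md lie in the copies, while in O4AID they lie in the gene. In O4AID, Atp5l and Cox7a2l have visible shares in the copies, and Ndufs5 has more in its copy (24.6 CPM) than in the gene (14.1 CPM).

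Genes that work with these subunits did not all move alike. The 13 subunits encoded by mitochondrial DNA were all called higher at 36 h in CreER (19.4% of all genes). Their median log2 fold change was 0.66, with values from 0.26 for mt-Nd3 to 1.50 for mt-Nd6. The median was already 0.51 at 12 h, 0.48 at 18 h and 0.27 at 24 h, when 1, 3 and 1 of them were called higher (0.258%, 4.73% and 11.0% of all genes). Their sum was 5944 and 5419 CPM at 0 h, 7261 and 8641 CPM at 12 h and 7750 and 8062 CPM at 18 h. It was 6527 and 6840 CPM at 24 h and 8367 and 11138 CPM at 36 h. The 36 h replicates thus differed from each other as well, and the course was not steady. In O4AID their median was -0.33 at 6 h and 0.06 at 24 h. Of 12 regulators tested, 6 were called lower at 36 h and none higher (17.2% and 19.4% of all genes), among them Gabpa (-0.24), the DNA-binding part of the factor GABP, Tfam (-0.19), which packages mitochondrial DNA, and Pprc1 (-0.22), a coactivator. Gabpa and Tfam were at -0.49 and -0.44 in O4AID at 24 h. The nuclear receptor Esrrb, which is also an ESC marker, was not called at 36 h in CreER (0.07) and stood at -2.81 in O4AID at 24 h. Of 33 other assembly factors tested, 2 were called higher and 3 lower at 36 h, where 36.6% of all genes were called. Of 15 genes for electron carriers and coenzyme Q synthesis, 2 were called higher and 3 lower, and of 13 TCA cycle genes, 3 and 2. In O4AID at 24 h these lists had medians of -0.02, -0.08 and -0.17. Of the 6 carriers and channels, 2 were called higher at 36 h, Slc25a4 (0.42) and Vdac3 (0.19), and Slc25a5 (-0.16) lower. Slc25a4 and Slc25a5 exchange ATP for ADP across the inner membrane. The list had a median of -0.39 in O4AID at 24 h.

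The promoters of these genes share sequence features that the symbol rule did not use. The RefSeq promoter table (GRCm38.p6, 250 bases before to 50 after the start) held 75 of the 90 members. Searched on both strands, the NRF1 motif GCGCANGCG was in 29.3% of these members and 7.03% of all 27025 genes in the table, the ETS motif CCGGAAG bound by GABP in 25.3% and 9.93%, and the YY1 motif AANATGGC in 25.3% and 6.96%. Any of the 3 was in 65.3% of members and 20.8% of all genes. By complex, the NRF1 motif was in 7 of 15 members of complex V, 10 of 39 of complex I and 1 of 13 of complex IV. The YY1 motif was in 14 of 39 members of complex I and in none of the 8 of complexes II and III. The shares were not set against promoters of the same base composition. A match is a string of letters and not a measured binding site. As examples from an assembly factor called lower at 36 h, a complex II anchor and a second assembly factor, the 120 bases before the start are given, 5′ to 3′ on the strand of the gene, with the motif matches in capitals.
Ndufaf4 (chr4:24897963-24898082, plus strand, NRF1): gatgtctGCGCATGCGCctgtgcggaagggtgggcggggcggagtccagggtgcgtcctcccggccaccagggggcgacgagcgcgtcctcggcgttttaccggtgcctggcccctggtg
Sdhd (chr9:50603850-50603969, minus strand, NRF1 and ETS): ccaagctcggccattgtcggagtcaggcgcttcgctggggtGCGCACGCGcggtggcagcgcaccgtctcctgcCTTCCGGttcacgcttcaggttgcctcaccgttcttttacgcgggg
Ndufaf3 (chr9:108567437-108567556, minus strand, YY1): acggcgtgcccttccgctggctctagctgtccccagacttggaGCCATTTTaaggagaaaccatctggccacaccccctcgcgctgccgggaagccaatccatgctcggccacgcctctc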

How the data were processed

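Per the labels and the study's methods, the authors prepared ribosome-depleted directional libraries, trimmed reads with Trim Galore 0.1.4, aligned them to GRCm38/mm10 with TopHat2 2.1.0 and counted reads per gene with featureCounts 1.5.1. The strand and multimapping settings are not given in the sources used here. The deposited files hold raw counts per gene and a table of TMM-normalised signal, which was used to choose members. Members and lists were chosen with earlier results of these data known. CreER counts were tested with edgeR 4.0.16 (TMM, quasi-likelihood test, 10 libraries in 1 fit, Benjamini-Hochberg adjustment, calls at adjusted p under 0.05). O4AID and line differences were log2 ratios of CPM + 1, with 95% Wilson intervals for O4AID, over genes with a mean of at least 50 counts. Alternatives were DESeq2 1.42.0, other scalings, filters, pseudocounts and folds, a replicate block and left-out libraries. Copies were sought with BLAST 2.17.0. Named genes were the highest and lowest level per complex, the 8 largest called rises and falls at 36 h, the 6 largest O4AID changes each way, the 4 largest line differences each way, the paralogue sets and the Sdh genes. Other members were named after their values were seen. The values of 1 member are not reported here, and it enters only counts and sums over members.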

Additional observations from a re-analysis of the deposited data

Results flagged for a closer look

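The member whose values are not reported here was left out of this count. For 5 other members both CreER libraries at 24 h lay on one side of both 0 h libraries. For the same 5, the single O4AID library at 24 h differed from 0 h the other way by more than its counting interval. All 5 were lower in O4AID and higher in both CreER libraries: on the log2 scale, Uqcrb stood at -0.36 in O4AID, Cox4i1 at -0.10, Cox7a1 at -0.30, Atp5l at -0.61 and Atp5g2 at -0.25. None of the 5 was called at 24 h in CreER, and the difference between the routes was not tested. The share of all genes with this pattern was not taken. Of the 89 members, 83 were under 0 in O4AID at 24 h, so a CreER rise was likely to meet a lower O4AID value. Atp5l and Uqcrb are members with near-identical copies.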

How the results depend on the processing

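With total-count scaling, the step from 24 h to 36 h in CreER turned from mostly higher to lower calls. Among the 12 members followed at 36 h, 99 of 120 values kept their call and 21 lost it. Counts of members called in CreER moved as follows. Without a filter, 1 was higher at 12 h, 4 lower at 18 h and 2 lower between 24 h and 36 h. With DESeq2, 1 was lower at 18 h and 6 at 24 h. With only the 4 libraries compared, 0 were lower at 18 h and 7 at 36 h. With a mean of 50 counts, 1 was higher at 24 h and 2 lower between 24 h and 36 h. With total-count scaling, 6 were lower at 24 h and 28 at 36 h, and 0 were higher and 10 lower between 24 h and 36 h. The CreER median became -0.0201, -0.0256, -0.0887 and -0.0709 at 12 h, 18 h, 36 h and between 24 h and 36 h by total count. It was 0.0295 at 12 h for subunits alone, and at 36 h -0.014 with DESeq2, -0.0144 with RLE scaling, -0.016 without a filter and -0.0157 for members without copies, an alternative chosen after seeing the data.

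Leaving out 1 library gave 0 to 1 higher at 12 h, 0 to 2 higher and 0 to 8 lower at 18 h, 0 to 2 higher and 3 to 17 lower at 24 h, 3 to 7 higher and 4 to 15 lower at 36 h, and 1 to 5 higher and 0 to 2 lower between 24 h and 36 h. Medians ranged from -0.0009 to 0.0266 at 12 h, -0.0239 to -0.0049 at 18 h, -0.0257 to -0.0068 at 36 h and -0.0029 to 0.0566 between 24 h and 36 h. A time left with 1 library was assumed to vary like the others.

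In O4AID, members at least 1.5-fold lower were 1 at 1.5 h and 2 at 10 h with a pseudocount of 0.1. With a pseudocount of 5 they were 0, 0 and 2 at 6, 10 and 24 h, by total count 0, 0 and 2, and against the 1.5 h library 0, 0 and 1. Members at least 20% lower were 1, 5, 11 and 34 at the 4 times, and at 2-fold 0, 0 and 1 at the last 3. Shares of all genes under these alternatives are not given here, so these counts have no background. At 24 h, 3 were lower among subunits alone, and the median was -0.15 by total count. Between untreated lines, 2 members were lower in O4AID by total count and 1 with RLE scaling, and 0 to 1 when a CreER library was left out. The median difference was 0.61 by total count, 0.63 for members without copies and 0.70 for gene plus copies, the last 2 chosen after seeing the data.

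Libraries with the same replicate number did not deviate together (correlations of deviations from -0.02 to 0.05 over 10 pairs of times), so the numbers were not taken to pair samples. With the replicate block, 13 members were called lower and 4 higher at 36 h and 10 lower at 24 h, and 6999 of all genes were called at 36 h in place of 6948.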
